A study of Rattus norvegicus with 24 samples.

Results

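The transcripts described here are those of the epithelial Na channel ENaC and of the proteins that act on it directly, in the papilla of the rat kidney and in heart ventricle. They are 8 genes of the 36856 in each count table, taken by their symbols: the channel subunits Scnn1a, Scnn1b and Scnn1g, the kinase Sgk1, the ubiquitin ligases Nedd4l and Nedd4, and the membrane proteases Prss8 and St14. All 8 symbols were present in all 3 tables. The 24 libraries came from Sprague-Dawley rats, 4 libraries in each of 6 groups, and no genotype other than the strain is given. Aldosterone rats received the steroid at 12 µg per day from an implanted osmotic minipump while eating 0.4% Na, and their controls ate the same diet. In the diet experiment, low-salt rats ate 0.01 to 0.02% Na for 7 days, and kidney and heart were both sampled. The rats labelled high salt are read here as those on 0.4% Na, the other diet the protocol names. The tissue pieces were a kidney papilla or a part of the ventricle, so each library mixes cell types, and fewer cells of a type cannot be told apart from less RNA per cell. The labels do not say whether kidney and heart of the diet experiment came from the same rats, nor whether control rats carried an empty pump or how long the pumps ran.

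ENaC is the channel through which Na enters the principal cells of the collecting duct from the urine, and it is built from an alpha, a beta and a gamma subunit, the products of Scnn1a, Scnn1b and Scnn1g. Aldosterone, released when Na intake is low, acts through the mineralocorticoid receptor to increase the number and activity of these channels. Nedd4l binds the tails of the subunits and marks the channel for removal, Sgk1 phosphorylates Nedd4l and so holds it off, and serine proteases cut the extracellular loops of the alpha and gamma subunits and so raise channel activity.

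Library totals ran from 24299000 to 38319000 counts. The collecting duct marker list of 12 genes summed to 12001 to 19336 CPM (the count scaled to library size) in the 16 kidney libraries. The cardiomyocyte list of 10 genes summed to 74569 to 95410 CPM in the 8 heart libraries, so kidney and heart each carried their markers. The kidney libraries also held markers of the thick ascending limb, at 1066 to 5046 CPM, and of the proximal tubule, at 165 to 958 CPM. Whether the pieces held parts of the kidney outside the papilla was not tested. Aqp2, the water channel of principal cells, was at 0 to 656 counts in heart, and its distribution there is given with the heart results. The labels describe all rats as female, while Xist, the RNA of the inactive X chromosome, ran from 239 to 454 CPM in libraries of the aldosterone experiment but had a maximum of 0.0913 CPM over the 16 diet libraries. The summed level of 4 Y-linked genes ran from 144 to 275 CPM in those 16 libraries and reached 0.319 CPM in the other 8. By these transcripts the 16 diet libraries read as male, against their labels, and the other 8 as female.

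In the kidney on low salt the alpha subunit transcript rose, and the beta and gamma transcripts were higher in every low-salt than in any high-salt library without passing the threshold, an adjusted p of 0.05. Scnn1a was at 247, 150, 106 and 154 CPM in the 4 low-salt kidneys, against 33.4, 20.1, 27.3 and 20.8 CPM in the 4 high-salt kidneys. The lowest low-salt value was above every high-salt value. Scnn1a averaged 164 ± 59.5 CPM in low-salt rats, against 25.4 ± 6.24 CPM in high-salt rats (SD, n = 4 each), a 6.34-fold difference with a log2 fold change of 2.66 ± 0.25 (SE, 95% confidence interval 2.10 to 3.23). The adjusted p was 0.0103 in edgeR's quasi-likelihood test with Benjamini-Hochberg adjustment over all genes, and Scnn1a ranked 6 of the 18449 genes tested. It lay higher on low salt within both batches, with log2 differences of 2.89 in batch 1 and 2.41 in batch 2, and leaving out any 1 library gave log2 fold changes of 2.45 to 2.81 with adjusted p-values of 0.0163 to 0.0384. With the 4 libraries of batch 1 alone the log2 fold change was 2.90 and the adjusted p 0.191.

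The beta subunit was next in size. Scnn1b was at 96.9, 52.3, 58.3 and 74.6 CPM in low-salt kidneys, against 33.5, 37.0, 45.2 and 36.1 CPM in high-salt kidneys, and the groups did not overlap. Its log2 fold change was 0.89 ± 0.20 (SE), with an adjusted p of 0.0561 (edgeR) or 0.000216 (DESeq2). The gamma subunit gene Scnn1g was at 112, 75.4, 81.1 and 90.9 CPM in low-salt kidneys, against 58.2, 60.9, 60.2 and 68.9 CPM in high-salt kidneys. These values did not overlap either, and the log2 fold change was 0.54 ± 0.13, with an adjusted p of 0.0662 (edgeR) or 0.0021 (DESeq2). Low-salt replicate 1 had the highest level of all 3 subunits. Without it Scnn1b had a log2 fold change of 0.65 and an adjusted p of 0.0416.

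**Figure D1:**
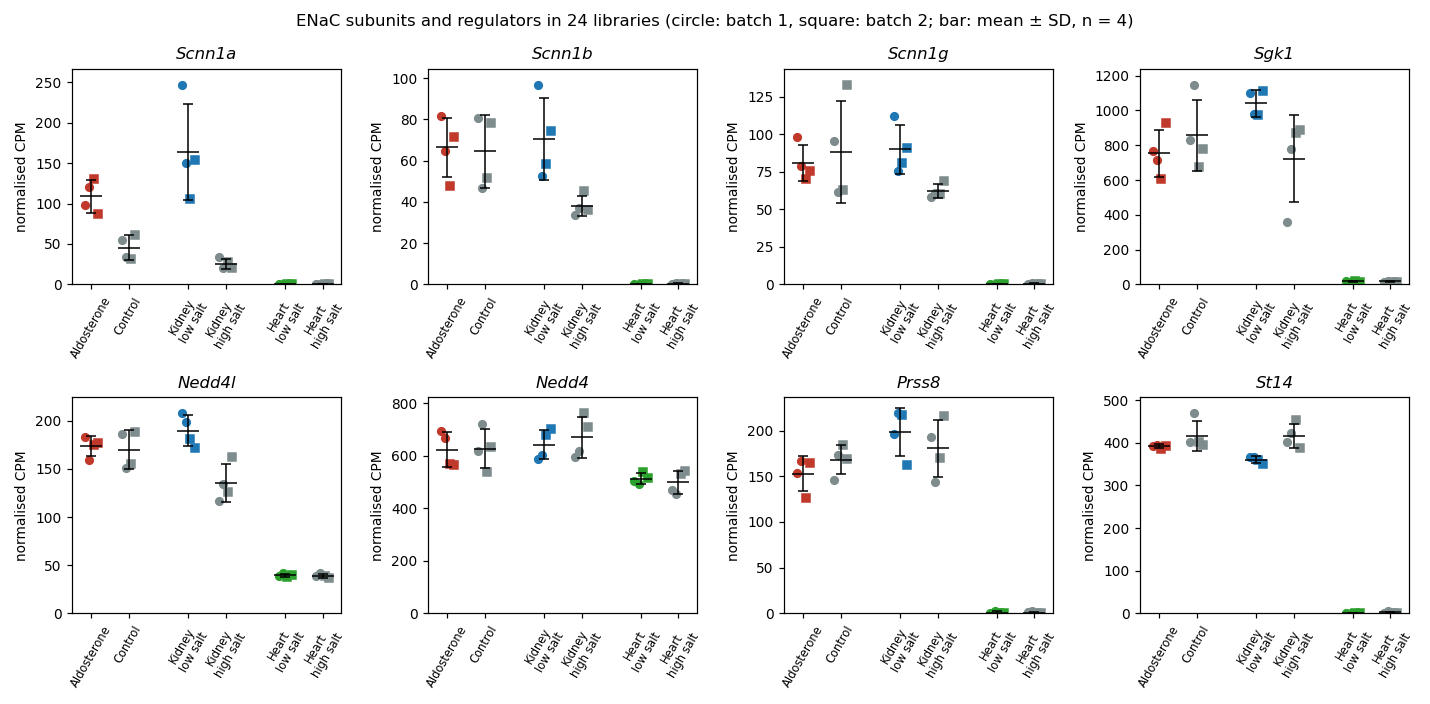
Normalised CPM of each of the 8 genes in every library, with 1 point per library, circles for batch 1, squares for batch 2, and bars for the mean ± SD of 4 libraries. Scnn1a is at 106 to 247 CPM in low-salt kidneys and 20.1 to 33.4 CPM in high-salt kidneys, while in heart no subunit reaches 1 CPM.

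Among the regulators, Nedd4l and Sgk1 were also at higher levels in every low-salt kidney than in any high-salt kidney, without passing the threshold. Nedd4l, the ligase that retrieves ENaC, was at 208, 199, 181 and 172 CPM on low salt, against 116, 134, 126 and 162 CPM on high salt. Its log2 fold change was 0.49 ± 0.11 (SE) with an adjusted p of 0.0608 (edgeR) or 0.00189 (DESeq2), and without high-salt replicate 4, the highest of its group, the adjusted p was 0.0284 in edgeR. Sgk1 was at 1103, 978, 973 and 1113 CPM on low salt, against 358, 779, 868 and 889 CPM on high salt. High-salt replicate 1 lay far under the other 3 of its group. The log2 fold change of Sgk1 was 0.56 ± 0.24 with an adjusted p of 0.237, and it was 0.31 ± 0.09 with an adjusted p of 0.164 without that library. The same library held the highest summed level of 8 urothelial markers, at 532 CPM against 92.3 to 180 CPM in the other high-salt kidneys and 110 to 283 CPM in low-salt kidneys, and the part of this in the Sgk1 value was not tested.

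The proteases and the second ligase showed smaller differences. St14, or matriptase, which activates Prss8 and can cut ENaC, was at 368, 366, 360 and 350 CPM on low salt, against 401, 424, 453 and 388 CPM on high salt. Every low-salt value was below every high-salt value, with a log2 fold change of -0.21 ± 0.07 (SE) and an adjusted p of 0.147. Prss8, or prostasin, the membrane-anchored protease first described as a channel-activating protease, was at 163 to 219 CPM in low-salt rats, against 143 to 216 CPM in high-salt rats (log2 0.14 ± 0.14, adjusted p 0.627). Nedd4, a relative of Nedd4l, was at 588 to 700 CPM in low-salt rats, against 593 to 761 CPM in high-salt rats (log2 -0.06 ± 0.06, adjusted p 0.647). The 95% confidence interval of Nedd4 ran from -0.20 to 0.09 and that of Prss8 from -0.19 to 0.47 on the log2 scale, so the data limit a change of Nedd4 more closely than one of Prss8.

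In all, 1 of 8 genes, Scnn1a, passed the threshold in kidney, where 2.46% of all genes tested did, and 1.09% passed as higher. By DESeq2, 4 of 8 passed, where 9.19% of all genes tested did. At an unadjusted p under 0.05 there were 6 of 8, against 19.6% of all genes tested. The low-salt values lay wholly above the high-salt values for 5 of 8 genes and wholly below for 1, where 4.83% and 6.62% of all genes tested did so. The median log2 fold change of the 8 was 0.51, against -0.00 over all genes tested. Collecting duct markers summed to 12001 to 16245 CPM in low-salt rats, against 14261 to 17025 CPM in high-salt rats. Of those 12 markers, Slc14a2, a urea transporter, fell to 1074 ± 153 CPM on low salt, against 1892 ± 387 CPM on high salt (adjusted p 0.0207 in edgeR), and the other 11 did not pass. The marker list had a median log2 fold change of -0.01. All 9 intercalated cell markers had positive log2 fold changes, with none passing, and summed to 1607 to 3395 CPM in low-salt rats, against 1339 to 2113 CPM in high-salt rats. All 8 proximal tubule markers were positive too, with a median of 0.74, none passing, and sums of 225 to 958 CPM in low-salt rats, against 165 to 743 CPM in high-salt rats. All 8 erythroid markers did too, with a median of 1.10, none passing, and sums of 2958 to 6612 CPM in low-salt rats, against 1223 to 4873 CPM in high-salt rats. One endothelial marker, Emcn, fell to 86.5 ± 19.1 CPM on low salt, against 145 ± 24.1 CPM on high salt (adjusted p 0.0319 in edgeR). Thick ascending limb markers summed to 1819 to 3513 CPM in low-salt rats, against 1567 to 2766 CPM in high-salt rats. The part of cell composition in the subunit values was not tested.

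Aldosterone infusion raises the hormone while the Na intake stays that of the controls. Scnn1a was at 97.7, 120, 130 and 86.7 CPM in aldosterone kidneys, against 55.1, 33.6, 31.2 and 61.6 CPM in controls. The groups did not overlap. Its mean was 109 ± 20.1 CPM under aldosterone, against 45.4 ± 15.3 CPM in control rats (SD, n = 4 each), with a log2 fold change of 1.26 ± 0.25 (SE, 95% confidence interval 0.69 to 1.83). The adjusted p was 0.182 in edgeR and 0.000131 in DESeq2. Within batches the log2 differences were 1.33 and 1.27.

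For the other subunits the groups did not separate. Scnn1b was at 81.8, 64.7, 47.6 and 71.4 CPM with aldosterone, against 80.9, 46.8, 51.7 and 78.4 CPM in controls (log2 0.04 ± 0.22, adjusted p 0.969). Scnn1g was at 97.9, 78.7, 70.5 and 75.4 CPM with aldosterone, against 95.4, 61.8, 62.5 and 133 CPM in controls (log2 -0.13 ± 0.25, adjusted p 0.894). For both genes the values of the groups were interleaved. The 95% confidence intervals, -0.47 to 0.54 for Scnn1b and -0.71 to 0.45 for Scnn1g, leave room for a moderate change in either direction.

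Sgk1, a gene known to respond to aldosterone within hours, was at 766, 713, 605 and 929 CPM in aldosterone kidneys, against 831, 1149, 677 and 777 CPM in controls. The ranges overlapped, and the log2 fold change was -0.17 ± 0.18 (SE) with an adjusted p of 0.782. Nedd4l was at 159 to 183 CPM under aldosterone, against 151 to 189 CPM in control rats, and Nedd4 at 563 to 695 CPM under aldosterone, against 537 to 719 CPM in control rats. Prss8 was at 126 to 167 CPM under aldosterone, against 146 to 184 CPM in control rats. St14 was at 385 to 395 CPM under aldosterone, against 395 to 469 CPM in control rats, where control replicate 2 held the highest value. The log2 fold changes of these 4 genes lay between -0.14 and 0.03, with adjusted p-values of 0.718 to 0.973.

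None of the 8 genes passed with aldosterone in edgeR, as 0% of all 17671 genes tested did. At an unadjusted p under 0.05 there was 1 of 8, Scnn1a, where 9.9% of all genes tested reached that level, and DESeq2 called the same 1, where it called 2.11% of all genes tested. Scnn1a was also the 1 gene of the 8 whose groups did not overlap, where 5.09% of all genes tested did not overlap, 3.15% wholly above and 1.95% wholly below. The collecting duct markers summed to 14261 to 19336 CPM under aldosterone, against 16308 to 18327 CPM in control rats. Those of the neighbouring thick ascending limb, 6 genes that include uromodulin (Umod), summed to 2292 to 5046 CPM under aldosterone, against 1066 to 2734 CPM in control rats, and 8 erythroid genes to 3480 to 4955 CPM under aldosterone, against 2068 to 2756 CPM in control rats. The 5 fibroblast markers tested were all positive, with a median log2 fold change of 0.94 and sums of 143 to 418 CPM under aldosterone, against 102 to 317 CPM in control rats. All markers tested were positive also for leukocytes (8, median 0.37), intercalated cells (8, median 0.28), urothelium (7, median 0.50) and the distal convoluted tubule (3, median 0.13), and no marker passed. The sums of the fibroblast, leukocyte, intercalated cell, urothelial and distal convoluted tubule lists overlapped between the groups. The erythroid sums did not overlap, and all 8 erythroid markers were positive, with a median of 0.83. All 6 thick ascending limb markers were positive too, with a median of 0.67 and sums that overlapped. Leukocyte markers averaged 186 CPM under aldosterone, against 191 CPM in control rats. Urothelial markers summed to 25.5 to 179 CPM under aldosterone, against 35.6 to 76.0 CPM in control rats. The part of these in the Scnn1a value was not tested.

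**Figure D2:**
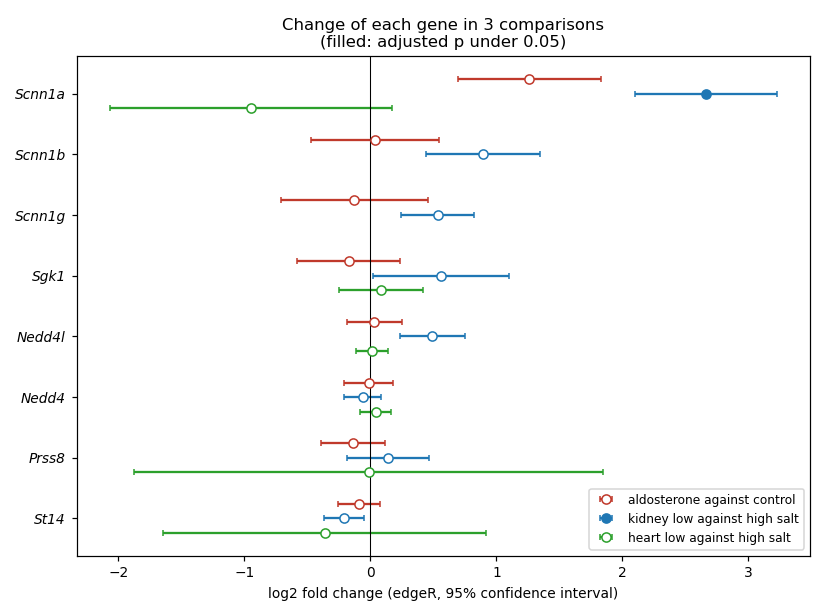
Log2 fold change of each gene with its 95% confidence interval for aldosterone against control, kidney low against high salt and heart low against high salt, where a filled point has an adjusted p under 0.05. Scnn1a in the kidney diet comparison, at 2.66, is the filled point, and Scnn1b and Scnn1g have no heart point because they did not pass the filter on low counts there.

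Whether the subunits changed unequally was asked with the ratio of their counts inside each library, which does not depend on how libraries are scaled. A ratio of counts also carries the lengths of the transcripts, so its size within a group says nothing about the numbers of subunits, and differences between groups are what it shows. The Scnn1a to Scnn1b ratio was 1.19, 1.86, 2.74 and 1.21 in aldosterone kidneys, against 0.681, 0.717, 0.604 and 0.786 in controls. In the diet experiment it was 2.55, 2.87, 1.81 and 2.07 on low salt, against 0.996, 0.542, 0.604 and 0.577 on high salt. Neither pair of groups overlapped. The Scnn1a to Scnn1g ratio was 0.998 to 1.85 with aldosterone and 0.463 to 0.577 in controls, and 1.30 to 2.20 on low and 0.303 to 0.574 on high salt.

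On the log2 scale the Scnn1a to Scnn1b ratio was higher by 1.25 with aldosterone and by 1.80 on low salt, and the Scnn1a to Scnn1g ratio by 1.37 and 2.13. Each of these 4 differences had p = 0.0286 in a two-sided exact permutation test over libraries, the smallest that 4 against 4 can give, and an adjusted p of 0.0429 over the 6 ratios tested. Permuting labels within batches gave p = 0.0556 for each in the exact test, again the smallest that design allows. The Scnn1g to Scnn1b ratio was 1.06 to 1.48 with aldosterone and 1.18 to 1.70 in controls, a log2 difference of -0.12 (exact permutation p = 0.514). It was 1.16 to 1.44 on low and 1.33 to 1.91 on high salt, a log2 difference of -0.34 (exact permutation p = 0.0857), with groups that overlapped. The alpha transcript differed relative to the beta and gamma transcripts in both experiments, and a change of beta relative to gamma did not pass. Without high-salt replicate 3 the Scnn1g to Scnn1b difference on low salt was -0.44 (exact permutation p = 0.0286, not adjusted).

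**Figure D3:**
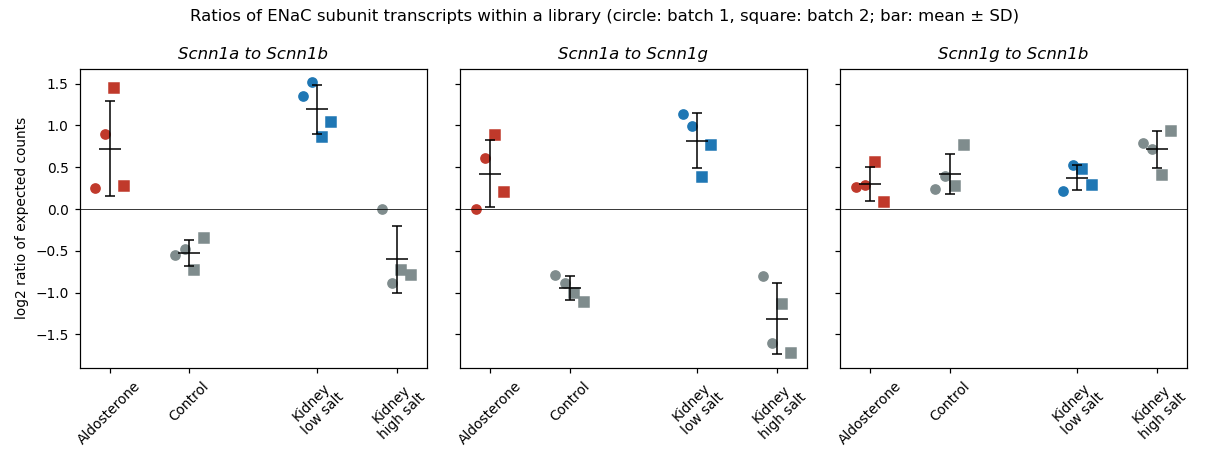
Log2 ratio of the expected counts of a pair of subunits in each kidney library, with points for libraries, circles for batch 1, squares for batch 2, and bars for the mean ± SD of 4 libraries. Both ratios with Scnn1a on top lie higher in every aldosterone and every low-salt library than in any library of the group each is set against, and the Scnn1g to Scnn1b ratios overlap.

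The kidney responses to aldosterone and to low salt were then compared directly. The Scnn1a response to aldosterone minus that to low salt was -1.42 ± 0.37 on the log2 scale (SE), with an adjusted p of 0.111 (edgeR) or 0.00831 (DESeq2). For Scnn1b the difference was -0.88 ± 0.33, for Scnn1g -0.68 ± 0.32, for Sgk1 -0.75 ± 0.32 and for Nedd4l -0.48 ± 0.16, with adjusted p-values of 0.267, 0.377, 0.346 and 0.203 in edgeR. None of the 8 genes passed in edgeR, where 0.0528% of the 18938 genes tested did (0.0264% in each direction), while 5 of the 8 had an unadjusted p under 0.05, against 13.1% of all genes tested, and DESeq2 called 1, where it called 3.47% of all genes tested. The groups that serve as controls had Scnn1a means of 45.4 CPM in the aldosterone experiment and 25.4 CPM in high-salt kidneys, in tables that were scaled separately, and their values overlapped. The libraries of the 2 experiments differ in sex by Xist and Y-linked transcripts, as given above. Sex, the experiment and the kind of treatment therefore cannot be told apart in this comparison.

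Beta and gamma transcripts varied together from library to library. The part of cell composition in this was not tested. No gene pairs beyond the 6 given here were examined, so how common such correlations are in these libraries is not known. After each kidney library was set against the mean of its group, the deviations of Scnn1b and Scnn1g had Pearson's r = 0.807 (permutation p = 0.00309, adjusted p 0.0185) and Spearman's rho = 0.871 (permutation p = 0.00193, adjusted p 0.0116) over 16 libraries, among 6 pairs of genes tested. Without the 2 libraries whose Scnn1b deviation lay farthest from its median, r was 0.797 (permutation p = 0.0132). With deviations taken within batches it was 0.803 (permutation p = 0.0398). Scnn1a with Scnn1b gave r = 0.489 and rho = 0.476, and Scnn1a with Scnn1g r = 0.59 and rho = 0.568. Their permutation p-values were 0.114 and 0.124, and 0.0771 and 0.097, with adjusted p-values of 0.228 for r and 0.248 for rho. Without the 2 libraries farthest in Scnn1a these r values were 0.241 and 0.338. With deviations taken within batches they were 0.536 and 0.652 (permutation p = 0.173 and 0.221). Sgk1 had r = -0.356 with Scnn1a, 0.244 with Scnn1b and 0.0591 with Scnn1g, and rho = -0.282, 0.232 and 0.15. None of these 3 passed, with permutation p-values of 0.2, 0.292 and 0.843 for r and 0.344, 0.418 and 0.656 for rho, and adjusted values of 0.3 to 0.843. Without the 2 libraries farthest in Sgk1 its r with Scnn1a was -0.102, with Scnn1b 0.449 (permutation p = 0.0273, not adjusted) and with Scnn1g 0.228. Within batches these r values of Sgk1 were -0.439, 0.235 and 0.112.

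**Figure D4:**
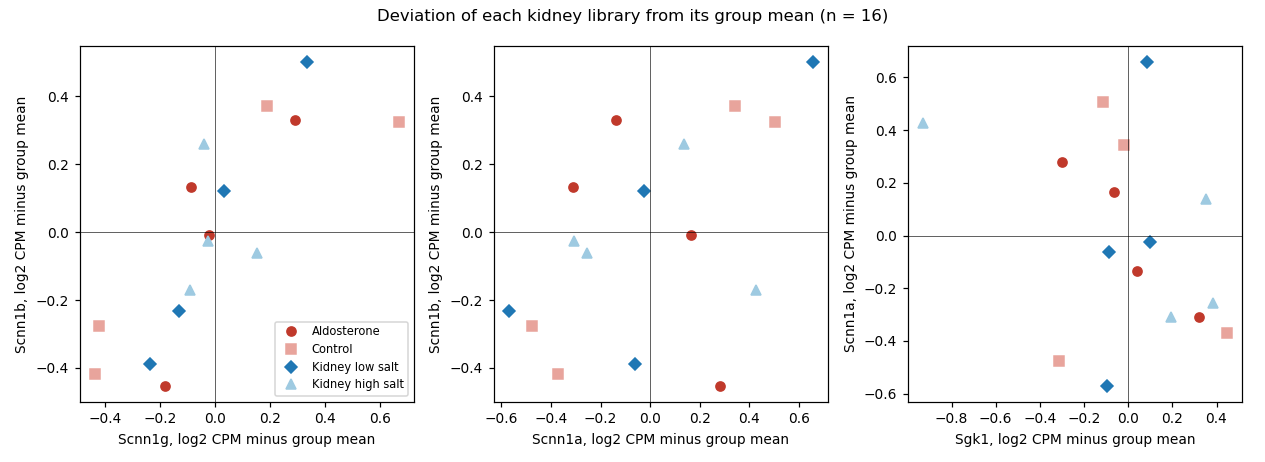
Log2 CPM of 2 genes in each of the 16 kidney libraries, each minus the mean of its group, with 1 symbol per group. Scnn1b against Scnn1g lies along a rising line (r = 0.807), Scnn1b against Scnn1a is looser (r = 0.489), and Scnn1a against Sgk1 shows no rising line (r = -0.356).

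Scnn1g and Scnn1b are neighbours on rat chromosome 1 in the RefSeq annotation of GRCr8, on the same strand with 0 annotated genes between them. Because these neighbours varied together, the 300 bases around their annotated starts (plus strand) are shown from RefSeq, GRCr8, at chr1:185735975-185736274 for Scnn1g and chr1:185861126-185861425 for Scnn1b, 5′ to 3′, with the GC box GGGCGG or its complement CCGCCC in capitals.
Scnn1g: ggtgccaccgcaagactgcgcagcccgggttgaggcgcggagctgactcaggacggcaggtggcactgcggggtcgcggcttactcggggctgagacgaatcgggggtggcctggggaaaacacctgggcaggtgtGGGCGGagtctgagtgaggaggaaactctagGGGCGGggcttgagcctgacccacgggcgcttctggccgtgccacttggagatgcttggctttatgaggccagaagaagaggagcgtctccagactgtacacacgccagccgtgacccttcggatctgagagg
Scnn1b: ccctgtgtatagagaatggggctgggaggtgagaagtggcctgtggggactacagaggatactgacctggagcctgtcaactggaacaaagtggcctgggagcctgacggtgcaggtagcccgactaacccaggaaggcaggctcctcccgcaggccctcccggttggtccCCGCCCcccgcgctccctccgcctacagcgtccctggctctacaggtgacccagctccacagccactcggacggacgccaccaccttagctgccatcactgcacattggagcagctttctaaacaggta

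The Scnn1g window held the GC box at 2 places and the Scnn1b window at 1, and 33.1% of the 33469 RefSeq windows of this length hold it. Neither window held TATAAA, found in 14.2% of windows, the clock E-box CACGTG, found in 6.42%, the corticosteroid half-site TGTTCT or AGAACA, found in 20.7%, or the full element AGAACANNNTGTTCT, which contains 2 half-sites and is found in 0.0149%. Both strands were searched. The windows of Sgk1, Nedd4 and Nedd4l held neither the half-site nor the full element, and Scnn1a, Prss8 and St14 had no window to search. GC content was 65% for Scnn1g and 62.7% for Scnn1b, against a median of 51.7% over all windows.

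In heart ventricle the channel transcripts were at or near the limit of detection. Scnn1a had 13, 10, 5 and 2 counts in low-salt hearts, against 8, 28, 9 and 12 counts in high-salt hearts, at most 0.894 CPM. Its groups overlapped, and the log2 fold change was -0.95 ± 0.49 (SE) with an adjusted p of 0.537. Scnn1b had 0, 1, 0 and 0 counts on low salt and 1, 19, 0 and 0 on high salt, and Scnn1g had 2, 2, 0 and 0 on low salt and 1, 27, 0 and 0 on high salt. Neither passed the filter on low counts, so no fold change is given. A count of 0 allows a level of up to 0.0921 to 0.108 CPM in the 4 libraries of batch 2, covering counting error only.

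The heart counts of Scnn1b and Scnn1g all came from batch 1, whose libraries also held kidney transcripts. All 4 batch 1 hearts held Aqp2, at 13 and 35 counts on low salt and 26 and 656 on high salt, whereas the 4 batch 2 hearts held 1, 0, 1 and 0. Umod had 21 and 130 counts in batch 1 low-salt hearts, 76 and 1498 in batch 1 high-salt hearts, and 0 in each of batch 2. High-salt replicate 2, with the most Aqp2 and Umod, held 19 counts of Scnn1b and 27 of Scnn1g, and no other heart held more than 1 and 2. Prss8 followed the same division, with 18 and 69 counts in batch 1 on low salt, 25 and 74 in batch 1 on high salt, and 0 in all 4 hearts of batch 2. St14 was detected in every heart, at 21 to 160 counts, with 160 in high-salt replicate 2 and at most 50 elsewhere. The summed collecting duct markers were 6.59 to 15.1 CPM in low-salt and 5.35 to 67.9 CPM in high-salt hearts. Proximal tubule markers summed to 42.9 and 179 CPM in batch 1 on low salt, and to 50.6 and 81.3 CPM in batch 1 on high salt. In batch 2 they summed to 0.677 to 1.87 CPM. The part of kidney transcripts in the heart values of the subunits and proteases was not tested.

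**Figure D5:**
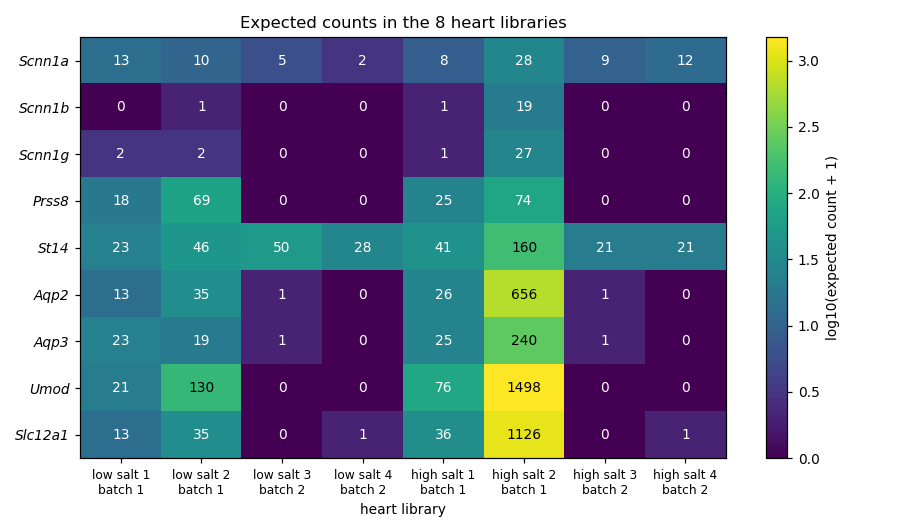
Expected counts of the subunits, the proteases and 4 kidney transcripts (Aqp2 and Aqp3 of principal cells, Umod and Slc12a1 of the thick ascending limb) in each heart library, with colour on a log10 scale of the count plus 1. Scnn1b, Scnn1g and Prss8 are at 0 in the 4 libraries of batch 2, and the column of high-salt replicate 2 holds the highest count in every row.

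The kinase and both ligases were detected in every heart, without a change that passed. Sgk1 was at 21.9, 14.9, 17.2 and 16.3 CPM in low-salt hearts, against 16.6, 21.8, 13.4 and 15.1 CPM in high-salt hearts (log2 0.09 ± 0.14 SE, adjusted p 0.862). Nedd4l was at 37.7 to 41.9 CPM in low-salt rats, against 36.8 to 41.3 CPM in high-salt rats, with a log2 fold change of 0.01 ± 0.06 and a 95% confidence interval of -0.11 to 0.14. Nedd4 was at 492 to 538 CPM in low-salt rats, against 454 to 542 CPM in high-salt rats, with a log2 fold change of 0.04 ± 0.05 and an interval of -0.08 to 0.16. Prss8 (-0.01 ± 0.74) and St14 (-0.36 ± 0.56) had intervals more than 2 log2 units wide. Of the 8 genes, 6 could be tested in heart and none passed in edgeR, where 0.0517% of the 15473 genes tested did (0.0129% higher, 0.0388% lower). By unadjusted p under 0.05 the count was also 0 of 6, against 10.6% of all genes, and DESeq2, which called 1.96% of all genes, called 0 of the 3 to which it gave an adjusted p. No gene of the 6 had groups free of overlap, against 4.72% of all genes tested (2.69% wholly above, 2.04% wholly below). All 8 erythroid markers were positive in heart (median log2 fold change 1.30), with sums of 17674 to 56102 CPM in low-salt rats, against 2240 to 33706 CPM in high-salt rats. All 8 leukocyte and all 6 fibroblast markers were negative (medians -0.21 and -0.32). Of 10 cardiomyocyte markers 5 were positive and 5 negative, and no marker passed. The part of cell composition in the heart values was not tested.

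The difference between the kidney and heart responses to low salt passed for Scnn1a, at a log2 difference of 3.55 ± 0.60 (SE) with an adjusted p of 0.0231 in edgeR, where 0.83% of the 19408 genes tested passed, 0.376% as higher. DESeq2 called 3 of the 8 genes, Scnn1a, Scnn1b and Nedd4l, and 4.23% of all genes tested. That value rests on the 2 to 28 heart counts of Scnn1a. The adjusted p was 0.0963 without heart high-salt replicate 2, 0.0535 without heart high-salt replicate 3 and 0.0535 without heart low-salt replicate 4. It was 0.0508 without a batch term and 0.058 with the replicate number as a block. For Nedd4l the kidney response exceeded the heart response by 0.49 ± 0.14, with an adjusted p of 0.117 (edgeR) or 0.0357 (DESeq2), and of 0.0181 in edgeR without kidney high-salt replicate 4. Sgk1 stood at 0.48 ± 0.30 and Nedd4 at -0.10 ± 0.07, with adjusted p-values of 0.527 and 0.625, and Prss8 and St14 at adjusted p-values of 0.945 and 0.861. Scnn1b and Scnn1g entered this test with heart libraries at or near 0, so their fitted differences are no measure of size, and had adjusted p-values of 0.176 and 0.223 in edgeR and 0.034 and 0.123 by DESeq2.

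Ordered by mean level, the 3 subunits stood highest in low-salt kidneys and lowest in heart, in tables that were scaled separately. The aldosterone and diet experiments also differ in sex by Xist and Y-linked transcripts. In an order across them, treatment, experiment and sex cannot be told apart. For Scnn1a the order was 164 ± 59.5 CPM in low-salt kidneys, 109 ± 20.1 CPM with aldosterone, 45.4 ± 15.3 CPM in controls, 25.4 ± 6.24 CPM in high-salt kidneys, and 0.275 ± 0.206 CPM in low-salt and 0.479 ± 0.283 CPM in high-salt hearts. The low-salt and aldosterone kidneys overlapped, as did controls with high-salt kidneys and the 2 groups of hearts, while aldosterone kidneys and controls did not. For Scnn1b the means were 70.5 ± 19.9 CPM in low-salt kidneys, 66.4 ± 14.4 CPM with aldosterone, 64.5 ± 17.7 CPM in controls and 38.0 ± 5.04 CPM in high-salt kidneys, and the first 3 overlapped. For Scnn1g they were 89.9 ± 16.2, 80.6 ± 12.0, 88.2 ± 33.8 and 62.0 ± 4.70 CPM in the same order, and there the high-salt kidneys overlapped controls too. The highest Scnn1g library, at 133 CPM, was control replicate 4. Sgk1 averaged 1042 ± 76.8 CPM in low-salt kidneys, 753 ± 135 CPM with aldosterone, 858 ± 204 CPM in controls and 723 ± 249 CPM in high-salt kidneys, against 17.6 ± 3.05 CPM in low-salt and 16.7 ± 3.64 CPM in high-salt hearts. Nedd4 averaged 641 ± 55.3 CPM in low-salt and 670 ± 78.3 CPM in high-salt kidneys, and 513 ± 19.7 CPM in low-salt and 499 ± 43.7 CPM in high-salt hearts.

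The genes whose pattern over the 16 kidney libraries was most like that of Scnn1a were Zbtb16, Noxo1, Ltb, LOC102550394 and Ldhc, with root mean square differences from Scnn1a of 0.61, 0.61, 0.63, 0.64 and 0.65 log2 units after centring on table and batch, against a median of 1.12 over 15138 genes. Zbtb16 encodes a transcriptional repressor, Noxo1 an organiser of an NADPH oxidase, Ltb lymphotoxin beta and Ldhc a lactate dehydrogenase subunit. On low salt their log2 fold changes were 2.34, 1.40, 2.01, 1.34 and 1.19, and with aldosterone they were -0.05, 0.32, 0.35, 0.81 and 0.62, where Scnn1a stood at 1.26. Of the other genes of the set, Scnn1b ranked 82, at 0.83, Scnn1g ranked 386, at 0.93, and Nedd4l ranked 461, at 0.94. Sgk1 ranked 1747, at 1.02, Prss8 6531, at 1.10, Nedd4 7590, at 1.12, and St14 11907, at 1.18, and the last 2 lay at or beyond the median of all genes. A gene flat over these libraries would lie at 1.10 from Scnn1a, so a distance near that is no sign of likeness.

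Further genes of the pathway were described from 7 lists, of which 90 genes were tested in kidney on diet, 89 with aldosterone and 77 in heart. In kidney on diet 1 rose and 1 fell, a share near that of all genes tested, of which 1.09% passed as higher and 1.37% as lower, so the counts set the lists apart in neither direction. Fkbp5, a co-chaperone of the steroid receptors, was the member that rose, at 57.7 ± 9.57 CPM in low-salt rats, against 35.9 ± 3.18 CPM in high-salt rats (log2 0.69 ± 0.12 SE, adjusted p 0.0374 in edgeR). It belongs to the 15 genes of corticosteroid signalling and Scnn1a transcription, whose median log2 fold change was 0.02. Nherf2, a scaffold of membrane transporters, fell to 71.2 ± 5.64 CPM on low salt, against 94.9 ± 4.21 CPM on high salt (log2 -0.41 ± 0.07, adjusted p 0.0338 in edgeR), in the list of 15 trafficking partners with a median of -0.04. No listed gene passed with aldosterone or in heart.

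In the remaining lists no member passed in kidney on diet, and the smallest p-values are given. Among 14 other proteases and inhibitors of the channel, with a median log2 fold change of -0.06 on low salt and 0.46 with aldosterone, Tmprss2, a membrane serine protease, was at 563 ± 63.0 CPM in low-salt rats, against 406 ± 55.4 CPM in high-salt rats (adjusted p 0.066). With aldosterone Klk1, tissue kallikrein, was at 3.07 ± 0.82 CPM and in controls at 1.09 ± 0.36 CPM (adjusted p 0.182). Among 16 other ligases, adaptors and deubiquitinases, with medians of 0.00 and 0.01, Wwp1, a ligase of the Nedd4 family, was at 132 ± 14.6 CPM in low-salt rats, against 98.8 ± 8.09 CPM in high-salt rats (adjusted p 0.0534). Usp2, which removes ubiquitin from ENaC, was at 46.8 ± 6.23 CPM under aldosterone, against 25.5 ± 6.89 CPM in control rats (adjusted p 0.229), and at 104 ± 17.8 CPM in low-salt and 76.6 ± 4.31 CPM in high-salt hearts (adjusted p 0.221).

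Among 18 kinases and partners around Sgk1 the medians were 0.01 on low salt and -0.05 with aldosterone. Mapkap1, a subunit of the complex mTORC2 that phosphorylates Sgk1, was at 79.4 ± 4.50 CPM in low-salt rats, against 88.8 ± 2.87 CPM in high-salt rats (adjusted p 0.167), and Rictor, another subunit, at 50.3 ± 2.64 CPM under aldosterone, against 58.4 ± 2.90 CPM in control rats (adjusted p 0.299). In heart Pik3r1, a regulatory subunit of phosphoinositide 3-kinase, was at 128 ± 13.2 CPM in low-salt rats, against 90.2 ± 7.54 CPM in high-salt rats (adjusted p 0.0891). The 10 genes of Na exit and K secretion had medians of 0.26 on low salt and 0.38 with aldosterone. Fxyd2, a small membrane protein that modulates ion transport, was at 1076 ± 113 CPM in low-salt rats, against 1430 ± 119 CPM in high-salt rats (adjusted p 0.0793). Of the related acid-sensing channels 2 of 5 were tested in kidney, and Asic1 was at 16.5 ± 4.47 CPM in low-salt rats, against 11.9 ± 2.91 CPM in high-salt rats (adjusted p 0.313).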

How the data were processed

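The deposited tables hold expected counts per gene, which the authors made with Salmon after Trimmomatic, per the submitters' processing notes, from stranded mRNA libraries (TruSeq, per the labels' protocols). The sources used here name no genome build, annotation or settings. Expected counts were rounded to whole numbers, genes were filtered with filterByExpr (minimum count 10), scaled by TMM and tested with edgeR 4.0.16 (quasi-likelihood, batch as a term) in R 4.3.3 within each table, with Benjamini-Hochberg adjustment over all genes and a threshold of 0.05. CPM values use the TMM-scaled library size. Differences between responses were fitted over 16 libraries with an intercept per table and batch. DESeq2 1.42.0, other scalings, filters, batch and block terms and leave-one-out fits were alternatives. Subunit ratios used a pseudocount of 0.5 counts and two-sided exact permutation tests. Correlations used 100000 permutations within groups, and their versions without 2 libraries and within batches were chosen after seeing the data.

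The 8 genes and all lists were chosen with earlier results of these data known. Named genes are the 8, the 5 genes closest to Scnn1a, and in each pathway list those called or with the smallest p. The result of 1 listed gene is not reported here. Other genes, and markers named because their values touch a result, were named after their values were seen. The edgeR fits were tested on simulated counts, and the other steps were not. No 2 libraries of a group agreed within sampling noise (chi-square per gene 20.5 to 105 over 36 pairs). The labels do not say that the 4 libraries of a group came from separate rats, so p-values measure the spread between these samples. Same-numbered samples deviated together in heart (correlations of 0.214 to 0.28), but so did different numbers of the same batch (0.243 to 0.317). Samples of different batches gave -0.334 to -0.14, so the heart values show a shared batch and no pairing by number beyond it. Same-numbered samples did not all deviate together for aldosterone (-0.0475 to 0.329) or kidney (-0.0448 to 0.244). Library totals of 24299000 to 38319000 counts limit precision for counts near 0. Confidence intervals come from the fitted standard errors and include the spread between libraries, while floors cover counting error only.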

Additional observations from a re-analysis of the deposited data

Results flagged for a closer look

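Among 48 groups of 4 samples examined for a sample far from the other 3, 5 were found, where chance gives about 1 in 20 for normally distributed values. That rate does not hold for counts near 0, so the heart groups of Scnn1b and Scnn1g cannot be set against it. In high-salt hearts replicate 2 stood at 0.607 CPM of Scnn1b, against 0 to 0.0371 CPM in the others, and at 0.862 CPM of Scnn1g, against 0 to 0.0371 CPM. In low-salt hearts replicate 2 stood at 0.0369 CPM of Scnn1b, which is 1 count, against 0 in the others. St14 was at 385 CPM in aldosterone replicate 3, against 393 to 395 CPM in the others, and at 469 CPM in control replicate 2, against 395 to 402 CPM. The Scnn1a responses to low salt differed between kidney and heart by 3.55 on the log2 scale, by an interaction test (adjusted p 0.0231 in edgeR).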

How the results depend on the processing

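Scnn1a in kidney on diet stayed past the threshold without any 1 library. Counts of calls moved far more. With aldosterone 0 genes passed, against 373 by DESeq2, 4 without a filter, 1 in batch 1 alone and 0 to 2 leaving out 1 library. In kidney on diet 454 passed, against 1695 by DESeq2, 165 without a batch term, 52 with the replicate number as a block, 0 in batch 1, 240 in batch 2 and 2 to 423 leaving out 1 library, the lowest being 2 when low-salt replicate 3 was left out. In heart 8 passed, against 303 by DESeq2, 85 without a filter, 1 without a batch term, 0 with the replicate block, 1 in each batch alone and 1 to 8 leaving out 1 library. For the aldosterone response minus the low-salt response 10 passed, against 657 by DESeq2, 52 without a filter, 0 without a batch term, 0 with the block and 0 to 67 leaving out 1 library. For kidney minus heart 161 passed, against 821 by DESeq2, 14 without a batch term, 16 with the block and 11 to 194 leaving out 1 library. Of the 8 genes, calls with aldosterone were 0, and 1 by DESeq2. In kidney on diet they were 1, with 4 by DESeq2, 0 in batch 1 and 1 to 2 leaving out 1 library. For aldosterone minus low salt they were 0, and 1 by DESeq2. For kidney minus heart they were 1, with 3 by DESeq2, 0 without a batch term, 0 with the block and 0 to 2 leaving out 1 library. With the block, Scnn1a in kidney on diet had a log2 fold change of 2.66 and an adjusted p of 0.0404. The cause of these moves was not tested.

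For the 4 ratios with Scnn1a on top, permuting within batches (exact permutation p = 0.0556) or within the replicate block (exact p = 0.125) leaves the differences of 1.25, 1.37, 1.80 and 2.13 as they are by construction and cannot pass, so it says nothing about their stability. Leaving out 1 library they ran over 1.00 to 1.40, 1.22 to 1.51, 1.69 to 1.99 and 2.00 to 2.31, and the Scnn1g to Scnn1b differences over -0.21 to -0.01 with aldosterone and -0.44 to -0.27 on low salt.

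Signs turned in single batches of 4 libraries. With aldosterone batch 1 gave 0.17 for Scnn1g, 0.033 for Nedd4 and 0.0092 for Prss8, and batch 2 gave -0.13 for Scnn1b and 0.079 for Sgk1. On low salt batch 2 gave -0.018 for kidney Prss8, -0.027 for heart Nedd4 and 0.74 for heart St14, and batch 1 gave -0.061 for heart Sgk1. Leaving out 1 library, ranges crossing 0 were, with aldosterone, -0.14 to 0.20 for Scnn1b, -0.30 to 0.19 for Scnn1g, -0.031 to 0.093 for Nedd4l and -0.061 to 0.044 for Nedd4. In heart they were -0.0083 to 0.037 for Nedd4l, -1.16 to 0.79 for Prss8 and -0.70 to 0.33 for St14. For aldosterone minus low salt Nedd4 ran over -0.022 to 0.092. For kidney minus heart Scnn1g, whose fitted value rests on hearts at or near 0 counts and is no measure of size, ran over -0.36 to 3.93 and passed in 1 of 16 fits (3.93, adjusted p 0.0215, without heart high-salt replicate 1), Prss8 over -0.66 to 1.35 and St14 over -0.53 to 0.65. None of these had passed with all libraries.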
